A study of Mus musculus with 5 samples.

Results

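Prostaglandin synthesis and the lysophosphatidic acid receptor Lpar3 were followed through 10 genes of the luminal layer of the mouse uterus before and after embryo attachment. The genes were taken by symbol from a table of 23420 counted genes: Pla2g4a, Ptgs1, Ptgs2, Ptges, Ptges2, Ptges3, Ptgis, Slco2a1, Hpgd and Lpar3. The layer came from pregnant wildtype C57BL/6N females by laser microdissection, and the day of the vaginal plug was day 1 of pregnancy. It was sampled on day 3 morning, day 4 morning, day 4 evening and, on day 5 morning, at 2 places, away from the embryo (labelled M pole) and around it (labelled AM pole). In the study's figures M and AM stand for the mesometrial and anti-mesometrial poles. Nearness to the embryo and pole of the uterus therefore cannot be told apart in the day 5 libraries. Each of these 5 groups was 1 library of untreated, genetically unmodified mice, except that the day 5 mice received 1% Chicago blue intravenously to show implantation sites. Embryos were looked for by flushing the oviducts on day 3 and a uterine horn on day 4. The study's methods describe pools of independent samples for its Lif libraries, which were not used here, and whether these libraries were pools is not given in the sources used here.

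Prostaglandins are made from arachidonic acid, which cytosolic phospholipase A2 (Pla2g4a) frees from membranes. The cyclooxygenases Ptgs1 and Ptgs2 turn it into prostaglandin H2, and terminal synthases make prostaglandin E2 (Ptges, Ptges2, Ptges3) or prostacyclin (Ptgis) from that intermediate. The transporter Slco2a1 carries prostaglandins into cells, where Hpgd inactivates them. Lpar3 is a G protein-coupled receptor for lysophosphatidic acid, and mice without Lpar3 or without Pla2g4a are known for late implantation and crowded embryos. Ptgs2 is known in mice for its expression at the site of the attaching blastocyst.

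All 10 genes are protein-coding, and no other counted gene shared exon bases with any of them. In the mm10 coordinates of the counts, Pla2g4a (chr1:149829622-149961284, minus strand) and Ptgs2 (chr1:150100124-150108012, plus strand) lie 139 kb apart on opposite strands with 1 counted gene between them. Chromosome 2 holds Ptgs1 (36230426 to 36252269), Ptges (30889471 to 30903297), Ptges2 (32395890 to 32402740) and Ptgis (167203196 to 167240537). The other 4 genes lie on chromosome 10 for Ptges3 (128058982 to 128077254), 9 for Slco2a1 (103008489 to 103087849), 8 for Hpgd (56294552 to 56321046) and 3 for Lpar3 (146220961 to 146286214). The GENCODE annotation places the processed pseudogene Ptges3-ps on chromosome 6, and reads shared with it make the Ptges3 counts uncertain. It also places a gene of unknown kind, Gm43621, on the other strand over 148 bases of a Ptgs1 exon, and the strand setting of the counting is not given in the sources used here.

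The promoters of the 6 genes that changed more than 2-fold from day 4 evening to day 5 around the embryo are shown because the day 5 results turn on them. They are RefSeq windows of build GRCm38.p6, 5′ to 3′ on the strand of each gene, of 120 bases before the annotated start and 30 bases from it. Capitals mark matches to 8 motifs searched on both strands, which were the TATA box TATAAA, the E box CACGTG, the cyclic AMP response element core TGACG, the AP-1 site TGANTCA, the Stat site TTCNNNGAA, the progesterone response element core ACANNNTGT, the CCAAT box and the GC box GGGCGG. The first 3 rose around the embryo and the last 3 fell.
Ptgs2, chr1:150099911-150100060, plus strand: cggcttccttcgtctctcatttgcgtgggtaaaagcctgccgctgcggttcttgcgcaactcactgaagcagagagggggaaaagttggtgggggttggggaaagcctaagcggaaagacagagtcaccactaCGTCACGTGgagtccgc
Ptges, chr2:30903268-30903417, minus strand: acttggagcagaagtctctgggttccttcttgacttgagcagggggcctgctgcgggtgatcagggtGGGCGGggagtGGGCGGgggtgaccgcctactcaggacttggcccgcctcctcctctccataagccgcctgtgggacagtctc
Slco2a1, chr9:103008367-103008516, plus strand: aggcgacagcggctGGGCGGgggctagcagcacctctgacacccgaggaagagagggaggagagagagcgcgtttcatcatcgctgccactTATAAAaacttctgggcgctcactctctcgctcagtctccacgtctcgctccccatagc
Ptgs1, chr2:36230306-36230455, plus strand: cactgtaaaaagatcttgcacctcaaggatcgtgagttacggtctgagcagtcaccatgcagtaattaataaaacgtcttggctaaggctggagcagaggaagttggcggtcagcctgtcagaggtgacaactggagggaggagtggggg
Pla2g4a, chr1:149961261-149961410, minus strand: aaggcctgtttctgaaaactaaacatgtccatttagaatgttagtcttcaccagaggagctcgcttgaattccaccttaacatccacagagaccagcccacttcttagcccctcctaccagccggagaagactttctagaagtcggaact
Lpar3, chr3:146220841-146220990, plus strand: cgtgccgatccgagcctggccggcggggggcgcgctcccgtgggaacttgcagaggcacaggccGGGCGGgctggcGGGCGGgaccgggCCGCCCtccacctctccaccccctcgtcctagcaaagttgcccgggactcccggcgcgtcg
In the Ptgs2 window the E box starts 16 bases after the annotated start and overlaps a TGACG core read on the other strand. That start, at 150100031, lies before the first counted base of Ptgs2. The Slco2a1 window holds TATAAA 29 bases before its start and 1 GC box, and the Ptges window holds 2 GC boxes. The Lpar3 window holds 3 GC boxes, and the Ptgs1 and Pla2g4a windows printed here held none of these letters. RefSeq gives Pla2g4a a second start, whose window (chr1:149922410-149922559) is not printed and holds 1 CCAAT box. Among 32851 RefSeq windows of this length, 4.47% held the E box, 14.0% the TGACG core, 7.16% TATAAA and 29.1% the GC box. The other shares were 4.16% for the AP-1 site, 4.00% for the Stat site, 3.09% for the progesterone response element core and 24.0% for CCAAT. A match is a run of letters and not a measured site. Windows were matched for 9 of the 10 genes, and the remaining one was Ptgis.

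Total counts were between 15334674 and 19529491 per library, and 15.0% to 23.2% of them fell on Rn45s and Lars2. Epithelial markers were high throughout, with all 8 of 8 above the floor of 3 counts and summed levels between 4062 and 8042 CPM (counts scaled by the TMM method to 1e+06 per library). The library around the embryo also differed in its markers of other cell types. Embryo and trophoblast markers summed to 149 CPM there with 11 of 12 above the floor, against 5.41 to 14.1 CPM with 3 to 5 of 12 above it elsewhere. Pou5f1, Nanog, Cdx2 and Gata4 were at 0 in the other 4 libraries, and Prl3d1 was at 0 in all 5. Smooth muscle markers summed to 395 CPM around the embryo, of which Des gave 354 CPM, against 10.9 to 31.8 CPM elsewhere, with 6 of 6 above the floor against 3 to 6. Endothelial markers summed to 95.5 CPM against 12.0 to 44.7 CPM, and were above the floor in 5 of 5 cases in every library. Cdh5 gave 71.4 CPM of that sum, and Pecam1, at 7.20 CPM, was close to its 7.02 CPM on day 4 morning. Kdr (1.05 CPM) and Emcn (1.57 CPM) were lowest around the embryo. Tek was at 14.3 CPM there against 25.3 CPM away from the embryo. Gland markers, 7 of which are in the table, summed to 30.4 CPM against 1.45 to 4.51 CPM. Above the floor were 5 of them against 1 to 4 elsewhere, and Ttr was at 0 in all 5. Lif gave 17.7 CPM of that sum, and the study describes Lif as induced also in stroma near attached embryos. Spink3, Prss28 and Prss29 were highest there too. Foxa2, at 1.22 CPM, was below day 3 morning (1.84 CPM) and day 4 morning (2.84 CPM), and Wfdc3 was at 0. Stromal markers had all 10 of 10 above the floor in every library and were lowest in sum around the embryo, at 410 CPM against 548 to 629 CPM. They did not move together. Col1a2, Col3a1, Dcn and Lum were lowest there. Hand2 reached 132 CPM there against 4.03 to 20.9 CPM, and Pdgfra (37.7 CPM), Pdgfrb (13.3 CPM) and Col1a1 (46.2 CPM) were also highest there. Leukocyte markers were also lowest in sum there, at 86.2 CPM against 222 to 325 CPM, with 4 of 6 above the floor against 4 to 5. Most of that difference was Lyz2, at 41.1 CPM against 187 to 287 CPM, and Ptprc and Csf1r were lowest there too. Cd68 was highest there, at 38.9 CPM against 9.99 to 17.7 CPM. The part of these cells in any difference around the embryo was not tested.

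With 1 library per group no difference below has a replicate check and no p-value is given. A change is the difference of log2 CPM, computed after adding a prior count of 2, and the pair of numbers in brackets is the exact 95% Clopper-Pearson range for the ratio of both counts, which covers counting error only. A gene is said to rise or fall when that difference is beyond 1 in size, which is 2-fold. The comparison covered 12915 genes that averaged 1 CPM or more over the libraries, and 9 of the 10 genes were among them. Ptgis was left out with counts of 13, 9, 3, 16 and 7. Fold sizes are ratios of CPM without the prior count, so for low counts they are larger than the log2 change beside them. With library totals in place of TMM, the median log2 change over all genes tested was -0.28, 0.05, 0.23, -0.11 and -0.36 in the 5 comparisons, in the order in which they are described next, against 0.00, 0.00, 0.01, -0.02 and -0.05 with TMM. In 3 of them this scaling also moved the share of calls that were higher, from 39.5% to 19.9% for day 4 against day 3 mornings, from 50.5% to 63.8% for day 4 evening to day 5 away from the embryo, and from 47.2% to 31.7% between the day 5 libraries. In all value series that follow, the order is day 3 morning, day 4 morning, day 4 evening, day 5 away from the embryo and day 5 around the embryo.

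The day 5 libraries differed most in which cyclooxygenase they held. Ptgs2, the inducible cyclooxygenase, had 1553, 335, 972, 67 and 8256 counts, or 89.4, 18.7, 61.4, 3.59 and 479 CPM. It was highest around the embryo and lowest away from it, with the 3 earlier libraries between. Every neighbouring pair in this order differed beyond counting error. Ptgs1, the enzyme usually described as constitutive, had 5211, 4717, 2048, 2195 and 58 counts, or 300.1, 263, 129, 118 and 3.37 CPM. Its order ran from day 3 morning down to the library around the embryo, where it was lowest. Ptgs2 was 133-fold higher around the embryo than away from it, a log2 difference of 7.02 [6.71, 7.43] that 41 of the 12915 genes exceeded. Ptgs1 was 34.9-fold lower, a difference of -5.08 [-5.53, -4.75], and 16 genes lay below it. In bulk tissue of this kind, fewer cells of a type and less RNA per cell cannot be told apart.

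On the scale of RPKM, which divides by the deposited gene length and so allows levels of different genes to be compared, both enzymes together amounted to 126, 96.2, 60.0, 42.0 and 117. The sum around the embryo was therefore close to that on day 3 morning. Its makeup was not. Ptgs2 gave 17.1% [16.3, 17.9], 4.68% [4.20, 5.20], 24.7% [23.3, 26.2], 2.07% [1.60, 2.62] and 99.0% [98.7, 99.2] of the cyclooxygenase RPKM. Ptgs1 was thus the larger part in 4 libraries, and Ptgs2 was nearly all of it around the embryo.

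**Figure D1:**
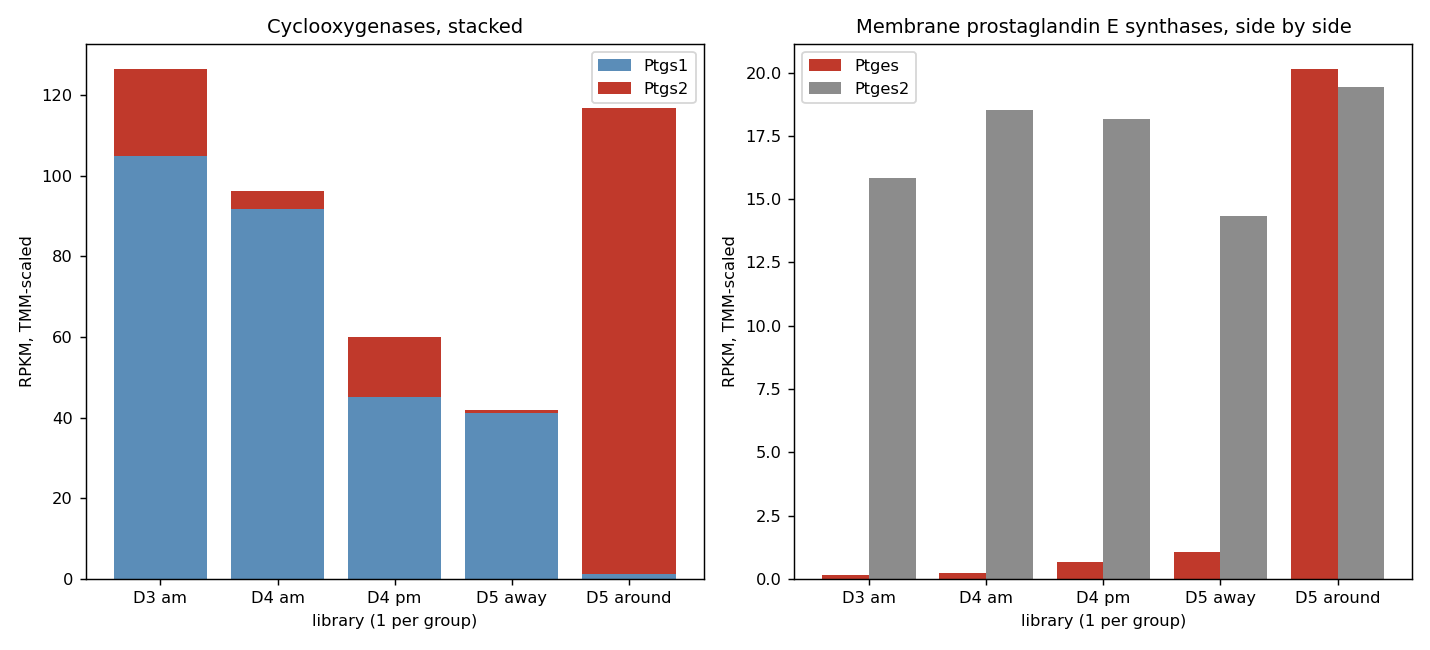
Bars give RPKM (linear axis from 0) in each of the 5 libraries, stacked for the cyclooxygenases Ptgs1 and Ptgs2 and side by side for the prostaglandin E synthases Ptges and Ptges2, with 1 library per group and no error bar. Ptgs1 makes up most of the cyclooxygenase bar except around the embryo, where Ptgs2 is 99.0% of it, and Ptges reaches 50.9% of the second pair there.

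Ptgs2 did not follow Ptgs1 at the earlier times either. From day 3 to day 4 morning Ptgs2 fell by 2.25 on the log2 scale [-2.44, -2.09], while Ptgs1 differed by -0.19 [-0.25, -0.13]. From day 4 morning to evening Ptgs2 rose by 1.71 [1.54, 1.90]. Ptgs1 crossed the 2-fold line downward at -1.02 [-1.10, -0.95], and it stayed inside that line when scaled by library totals. Against day 4 evening, Ptgs2 was 17.1-fold lower away from the embryo (-4.05 [-4.48, -3.74]) and 7.80-fold higher around it (2.96 [2.87, 3.06]). Ptgs1 was within 2-fold of day 4 evening away from the embryo, at -0.14 [-0.23, -0.05], and 38.4-fold lower around it, at -5.22 [-5.67, -4.89]. Both day 5 comparisons use the same day 4 evening library.

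Pla2g4a, which acts before the cyclooxygenases, was low on day 5 in both libraries. It had 11702, 14996, 7067, 1317 and 582 counts, or 674, 835, 447, 70.6 and 33.8 CPM. With TMM all 5 levels were separated beyond counting error, with day 4 morning highest. The change from day 3 to day 4 morning was 0.31 [0.27, 0.34] and that from day 4 morning to evening was -0.90 [-0.94, -0.86], both within 2-fold. Under library totals the change from day 3 to day 4 morning was 0.01, and 0.16 without Rn45s and Lars2. The separation of these mornings therefore rests on the scaling. Against day 4 evening Pla2g4a was 6.33-fold lower away from the embryo (-2.66 [-2.75, -2.58]) and 13.2-fold lower around it (-3.72 [-3.85, -3.60]). The day 5 libraries differed by -1.06 [-1.21, -0.92], lower around the embryo. Pla2g4a and its chromosome 1 neighbour Ptgs2 thus lay on opposite sides of day 4 evening in the library around the embryo.

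Of the 3 prostaglandin E synthases, Ptges alone changed beyond 2-fold. Ptges, the inducible microsomal enzyme, had 10, 15, 38, 71 and 1264 counts, or 0.576, 0.835, 2.40, 3.81 and 73.4 CPM. It was lowest on day 3 and day 4 mornings, which did not differ beyond counting error, and highest around the embryo. Ptges rose from day 4 morning to evening by 1.41 [0.63, 2.49], on 15 and 38 counts. Away from the embryo it was 0.64 [0.08, 1.27] above day 4 evening, within 2-fold, and around the embryo it was 30.6-fold higher at 4.87 [4.47, 5.44]. Between the day 5 libraries it was 19.3-fold higher around the embryo, at 4.23 [3.92, 4.63].

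Ptges2, a membrane-associated synthase, had 537, 649, 561, 522 and 653 counts, or 30.9, 36.1, 35.5, 28.0 and 37.9 CPM. Its whole range was 0.44 on the log2 CPM scale, where the median range of all genes tested was 1.36, and only the step from day 4 evening to day 3 morning separated neighbours in its order beyond counting error. Ptges3, the cytosolic synthase that also serves as a heat shock protein co-chaperone, had 20130, 19168, 12838, 12467 and 12960 counts, or 1159, 1067, 811, 668 and 752 CPM. It ranged over 0.79 and stayed within 2-fold in all 5 comparisons. Per length, Ptges3 was 90.7% to 97.4% of the RPKM of the 3 synthases together. Ptges was 0.987%, 1.22%, 3.50%, 6.79% and 50.9% of the RPKM of Ptges and Ptges2. The library around the embryo was thus the only one of the 5 in which Ptges reached the level of Ptges2, at 20.1 and 19.4 RPKM.

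Prostacyclin synthase was near the limit of detection. Ptgis had 0.749, 0.501, 0.190, 0.858 and 0.406 CPM, and no neighbouring pair in the order of its levels differed beyond counting error, although the highest and the lowest did, at 1.68 [0.37, 4.60]. On day 4 evening its 3 counts were at the floor, which is 0.190 CPM in that library.

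**Figure D2:**
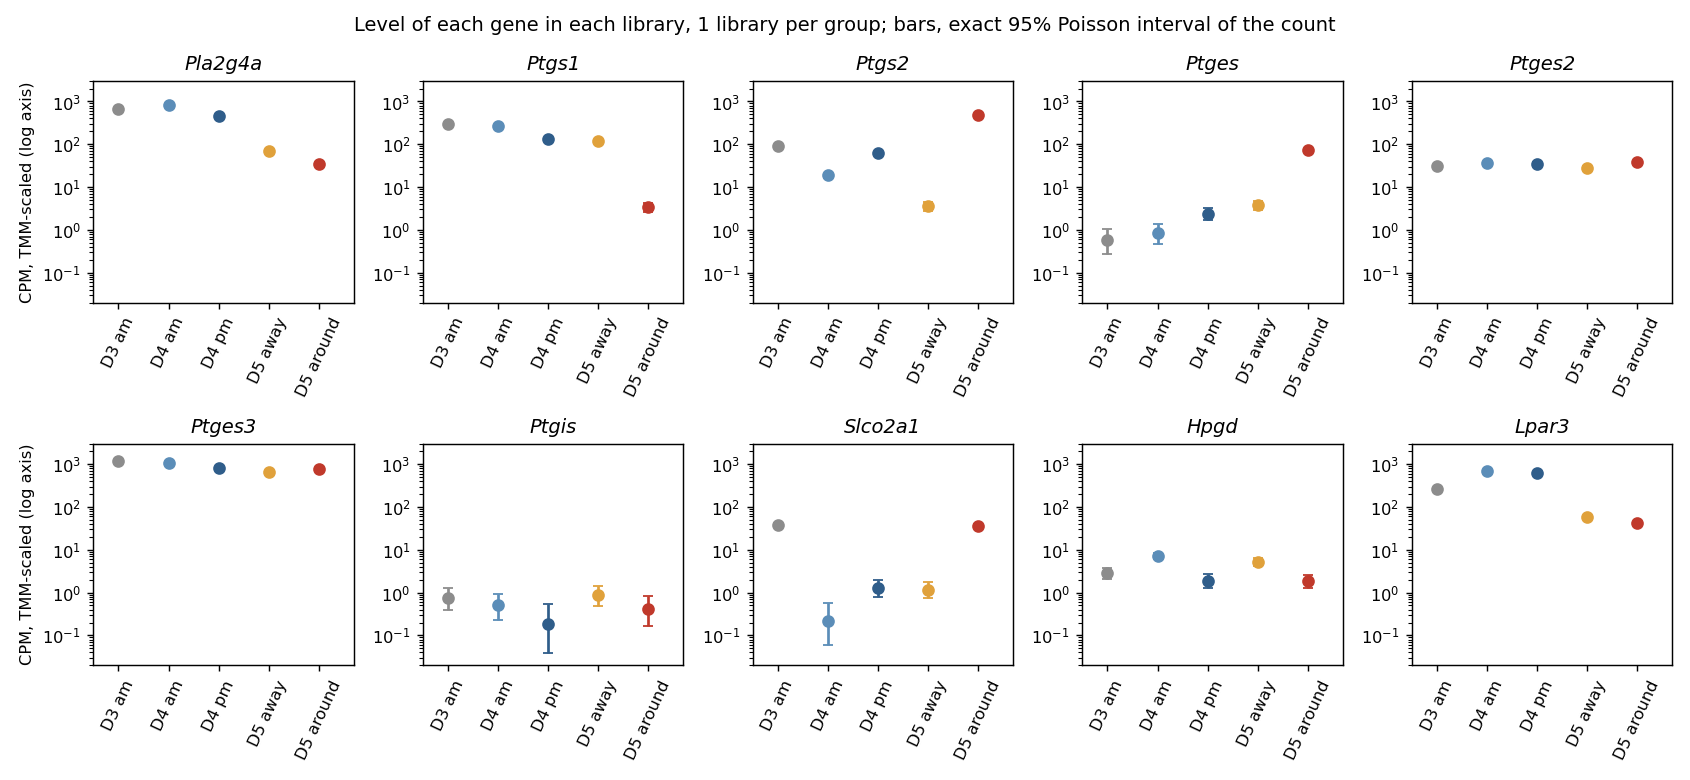
Each panel plots the CPM of 1 gene (log axis) in the 5 libraries in order of time, with bars for the exact 95% Poisson interval of the count and no replicate error. Ptgs2, Ptges and Slco2a1 reach 479, 73.4 and 36.9 CPM around the embryo, where Ptgs1 is at 3.37 CPM, and Pla2g4a and Lpar3 are low in both day 5 libraries.

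The prostaglandin transporter Slco2a1 was high in the first and in the last library. It had 662, 4, 20, 22 and 635 counts, or 38.1, 0.223, 1.26, 1.18 and 36.9 CPM. Day 3 morning and day 5 around the embryo did not differ beyond counting error, and neither did day 4 evening and day 5 away from the embryo. From day 3 to day 4 morning Slco2a1 fell to 4 counts, a ratio of 171-fold in CPM. With the prior count, which weighs on so low a count, the change was -6.82 [-9.30, -6.06] or 113-fold, and 2 of the 12915 genes fell further. It rose from day 4 morning to evening by 2.03 [0.93, 4.51], on 4 and 20 counts. Around the embryo it was 29.2-fold above day 4 evening (4.75 [4.23, 5.59]) and 31.3-fold above the library away from the embryo (4.84 [4.36, 5.65]). Away from the embryo the change from day 4 evening was -0.09 [-1.04, 0.85], within 2-fold.

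Hpgd, which starts the breakdown of prostaglandins, moved less, and in 3 comparisons both changed beyond 2-fold in opposite directions. Its counts were 49, 129, 30, 98 and 32, or 2.82, 7.18, 1.90, 5.25 and 1.86 CPM. It was highest on day 4 morning, and day 3 morning, day 4 evening and day 5 around the embryo could not be put in an order beyond counting error. Hpgd rose from day 3 to day 4 morning by 1.31 [0.86, 1.85] and fell by evening, at -1.86 [-2.55, -1.34]. It rose again from there to day 5 away from the embryo by 1.42 [0.87, 2.11], while around the embryo the change was -0.03 [-0.79, 0.74]. It was lower around than away from the embryo, at -1.44 [-2.12, -0.91]. On log2(RPKM + 1), which shrinks low genes, 3 of these 4 changes stayed within 2-fold, all but the fall between day 4 morning and evening.

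Lpar3 was highest on day 4. It had 4630, 12268, 9935, 1102 and 717 counts, or 267, 683, 628, 59.1 and 41.6 CPM. Both day 4 libraries were above day 3 morning, and both day 5 libraries were below it, with all neighbours separated beyond counting error. Lpar3 rose from day 3 to day 4 morning by 1.36 [1.31, 1.41] and changed by -0.12 [-0.16, -0.08] by evening. Against day 4 evening it was 10.6-fold lower away from the embryo (-3.41 [-3.50, -3.32]) and 15.1-fold lower around it (-3.91 [-4.03, -3.81]). The day 5 libraries differed by -0.50 [-0.64, -0.37], within 2-fold. Lpar3 and Pla2g4a were thus low in both day 5 libraries, whereas Ptgs2, Ptges and Slco2a1 were high in one of them.

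Per length, Ptges3 ranked first of the 10 genes in every library, at 342 to 593 RPKM. On day 4 morning Pla2g4a (293 RPKM), Lpar3 (274 RPKM) and Ptgs1 (91.7 RPKM) followed, ahead of Ptges2 (18.5 RPKM) and Ptgs2 (4.50 RPKM). Around the embryo the next were Ptgs2 (116 RPKM), Ptges (20.1 RPKM), Ptges2 (19.4 RPKM) and Lpar3 (16.7 RPKM). Pla2g4a at 11.9 RPKM, Slco2a1 at 9.14 RPKM, Ptgs1 at 1.18 RPKM, Hpgd at 1.08 RPKM and Ptgis at 0.232 RPKM closed that order.

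Counted over the 9 genes that passed the filter, 2 rose and 2 fell between day 3 and day 4 mornings. Among all genes tested 7.47% rose and 11.5% fell there. From day 4 morning to evening 3 rose and 2 fell, where 7.21% of all genes rose and 6.95% fell. Under library totals 3 rose and 1 fell in that comparison. From day 4 evening to day 5, 1 rose and 3 fell away from the embryo, against 12.9% and 12.7% of all genes. Around the embryo 3 rose and 3 fell, against 19.1% and 20.7% of all genes. Between the day 5 libraries 3 were higher and 3 lower around the embryo, against 13.4% and 15.0%. The genes therefore moved in both directions in every comparison, and their median changes were 0.22, -0.12, -0.28, -0.03 and 0.17, beside medians of 0.00, 0.00, 0.01, -0.02 and -0.05 over all genes tested. On log2(RPKM + 1) the day 4 rises of Ptges and Slco2a1 stayed within 2-fold.

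**Figure D3:**
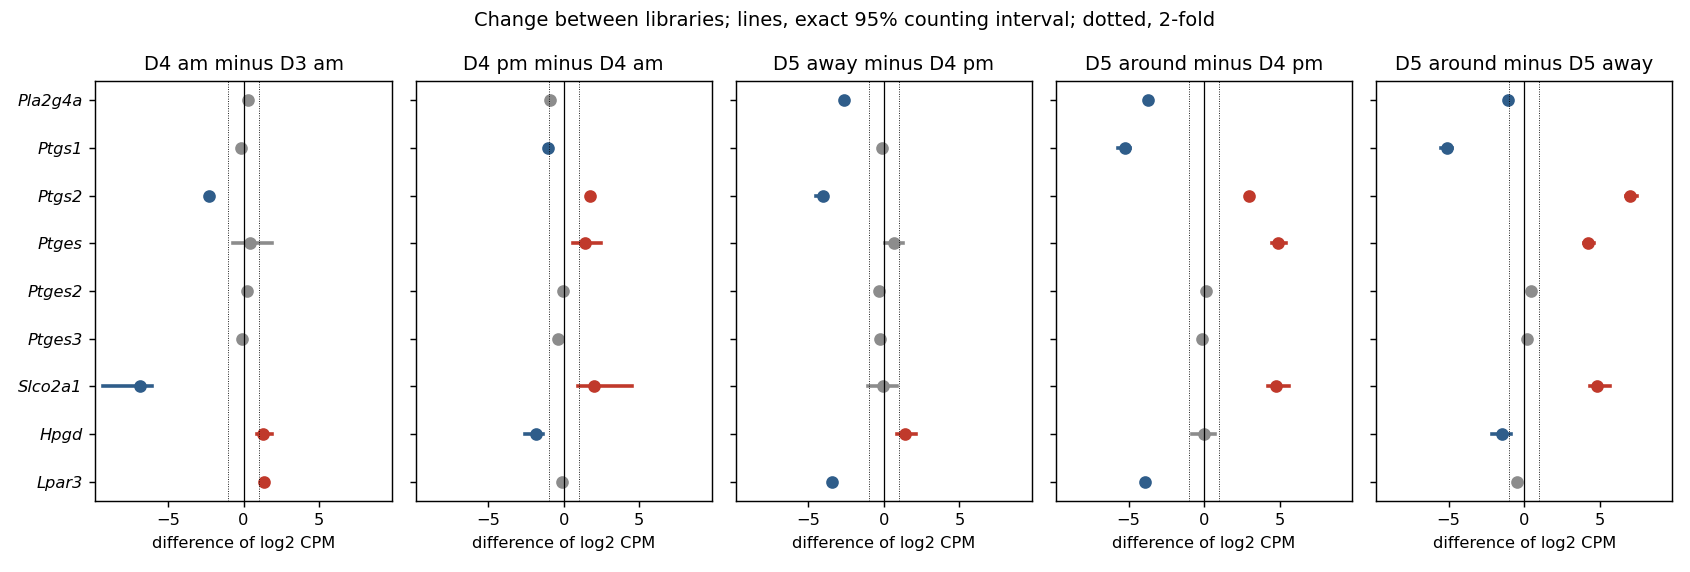
Points give the difference of log2 CPM of each of the 9 genes past the filter in the 5 comparisons, with bars for the exact 95% Clopper-Pearson interval from counting error and dotted lines at 2-fold. Ptges2 and Ptges3 stay between the dotted lines in every comparison, and Ptgs2 lies at -4.05 away from the embryo and at 2.96 around it against day 4 evening.

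**Figure D4:**
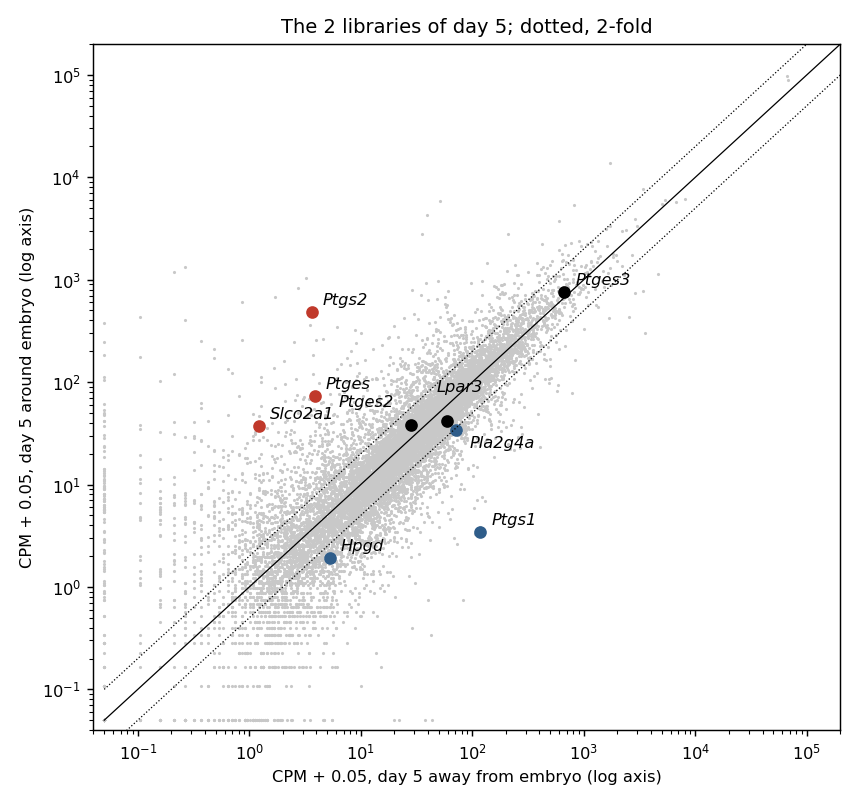
CPM + 0.05 of every counted gene (grey points, log axes) away from the embryo on day 5 is plotted against that around it, with the 9 genes past the filter as large points, those more than 2-fold higher in red, lower in blue and within 2-fold in black. Ptgs2, Ptges and Slco2a1 lie above the dotted 2-fold lines and Ptgs1, Hpgd and Pla2g4a below them.

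Ptgs2, Slco2a1 and Ptges had the widest ranges, at 7.02, 6.82 and 6.73 on the log2 CPM scale. Their patterns over the 5 libraries were matched to 8834 other genes that averaged 10 CPM or more by the root mean square difference of centred log2 CPM. These patterns are descriptions over 5 points, and all genes in a library share its depth and its mix of cells. For Ptgs2 the closest was Sprr2f, a small proline-rich protein gene, at 0.42 with 1093, 125, 464, 51.1 and 5909 CPM. Sprr2f belongs to a multigene family whose members may share reads, so its counts are uncertain. Next came the peptide transporter Slc15a1 at 0.91 and the transcription factor Bhlhe40 at 0.92. For Ptges the closest were Ptpla at 0.28, with 0.806, 1.61, 4.42, 9.49 and 124 CPM, the haem oxygenase Hmox1 at 0.37 and Nipal1 at 0.43. Slco2a1 had no match as near. Its closest genes were the small heat shock protein Cryab at 1.32, Sprr1a at 1.41 and Steap1 at 1.42.

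The rest of the pathway was read from a list of 93 further genes for prostanoids, lysophosphatidic acid and lipoxygenases, of which 57 passed the filter. In the 5 comparisons 8, 7, 8, 15 and 15 of the 57 rose and 9, 7, 11, 16 and 14 fell. Under library totals 4, 8, 11, 13 and 12 rose and 12, 6, 10, 17 and 16 fell. With that scaling 545, 1012, 2242, 2276 and 1300 of all genes tested rose and 2195, 821, 1270, 2880 and 2797 fell. As shares of the list, the calls with TMM are read beside the 18.9%, 14.2%, 25.6%, 39.8% and 28.3% of all genes that changed in either direction. Medians over the list were 0.12, -0.16, -0.06, 0.07 and 0.09.

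Among the genes of arachidonic acid release, 3 of 11 fell away from the embryo from day 4 evening and none rose. Around the embryo 3 rose and 5 fell. Among all genes tested 12.9% rose and 12.7% fell away from the embryo, and 19.1% rose and 20.7% fell around it. The secreted phospholipase Pla2g10 had 3239, 6774, 3138, 94 and 228 counts, and was 39.4-fold lower away from the embryo than on day 4 evening (-5.27 [-5.61, -5.00]). Pla2g5, another secreted phospholipase, had 609, 429, 230, 16 and 0 counts, and around the embryo it was at least 83.5-fold lower than on day 4 evening when set against the floor of 3 counts in that library. Pla2g16 had 551, 1376, 727, 456 and 127 counts, with a change of -2.62 [-2.92, -2.37] around the embryo. These phospholipases, like Pla2g4a, were lower in both day 5 libraries than on day 4 evening, although Pla2g16 stayed within 2-fold away from the embryo.

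The synthases of other prostanoids had 2 of 7 higher and 2 lower around than away from the embryo. Over all genes tested 13.4% were higher and 15.0% lower in that comparison. Akr1b8, an aldo-keto reductase, had 44, 44, 36, 61 and 791 counts and rose between the day 5 libraries by 3.77 [3.44, 4.21]. The carbonyl reductase Cbr2 had 3351, 4104, 2165, 58 and 49 counts, and was 44.0-fold lower away from the embryo than on day 4 evening (-5.41 [-5.86, -5.08]). Hpgds, which makes prostaglandin D2, had 66, 63, 83, 449 and 358 counts and rose by 2.17 [1.86, 2.55] away from the embryo and 1.96 [1.64, 2.35] around it. Akr1b8 was thus high around the embryo alone, and Hpgds was high in both day 5 libraries. Ptges3l, a gene related to Ptges3, had 66, 35, 19, 22 and 6 counts and was lower around than away from the embryo by -1.48 [-3.35, -0.41].

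Of 4 further transporters, 2 rose around the embryo on either contrast and none fell. The shares of all genes that rose and fell were 19.1% and 20.7% against day 4 evening. Between the day 5 libraries they were 13.4% and 15.0%. Slco4a1 had 48, 2, 20, 38 and 706 counts, and was lowest on day 4 morning, as Slco2a1 was, and highest around the embryo. Its fall from day 3 to day 4 morning was -3.67 [-7.72, -2.70] and its rise between the day 5 libraries was 4.26 [3.86, 4.84]. Abcc4, an exporter of prostaglandins, had 687, 853, 864, 1304 and 2537 counts, with 1.07 [0.98, 1.17] between the day 5 libraries. Slco3a1 had 873, 281, 65, 56 and 88 counts and fell before attachment, by -1.68 [-1.88, -1.49] and -1.90 [-2.34, -1.54] in the first 2 comparisons. Among 5 further genes of breakdown, Ptgr1, a prostaglandin reductase, had 655, 949, 761, 156 and 540 counts and was higher around than away from the embryo by 1.89 [1.65, 2.17], against the direction of Hpgd. Zadh2, another prostaglandin reductase, had 234, 281, 719, 1028 and 847 counts and rose on day 4 by 1.53 [1.34, 1.74]. Acot12, an acyl-CoA thioesterase that the list places under breakdown, had 0, 4, 0, 26 and 83 counts. In CPM these were 0, 0.223, 0, 1.39 and 4.82, so Acot12 passed the filter only through the library around the embryo. It was higher around than away from the embryo by 1.71 [1.14, 2.48], a direction that the filter favoured. Acot12 is among the pathway genes counted as higher there, and its part in prostaglandin breakdown was not tested.

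**Figure D5:**
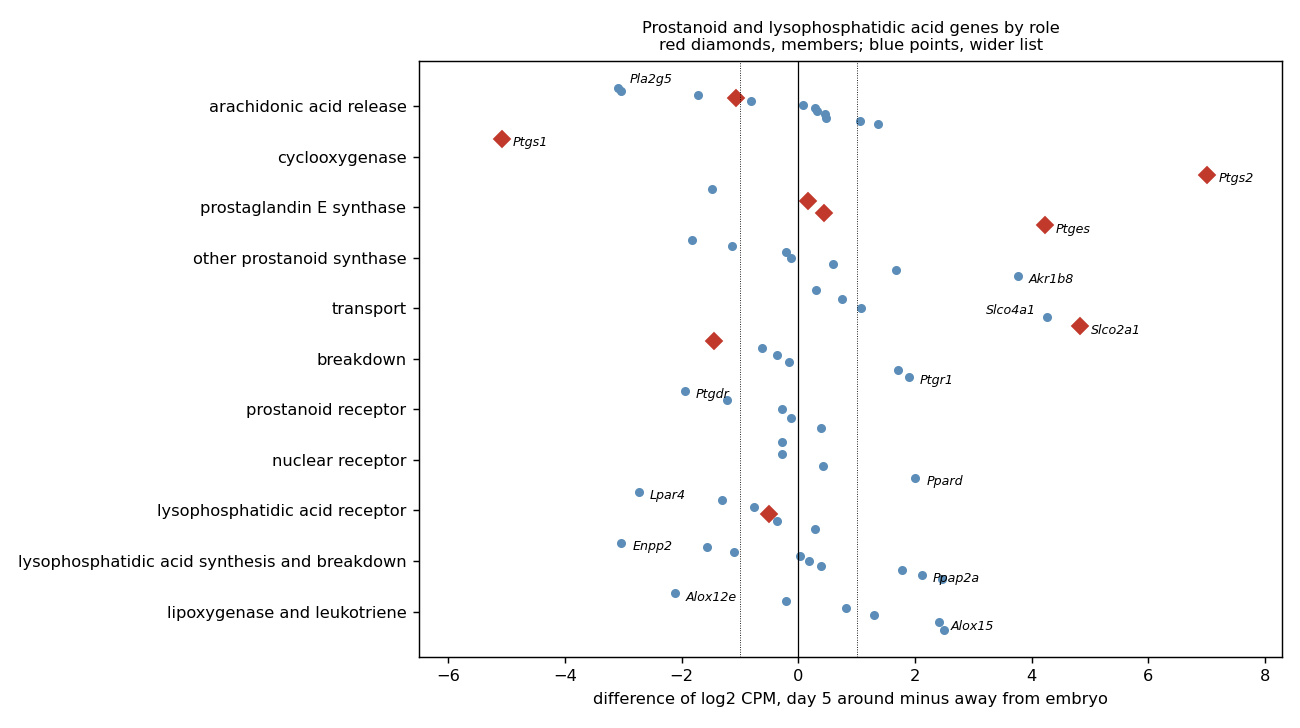
Each point is a gene past the filter in the row of its role, placed by the difference of log2 CPM between day 5 around and away from the embryo, with the 9 genes as red diamonds, the 57 further genes as blue points and dotted lines at 2-fold. Ptgs2 at 7.02 and Ptgs1 at -5.08 are the outermost points on either side.

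Of 10 genes listed under prostanoid receptors, which include the regulator Ptgfrn, 5 passed the filter. Receptors below the filter are not in the count that follows. None of these 5 rose and 2 fell between the day 5 libraries. Over all genes tested 13.4% rose and 15.0% fell there. Ptger2, a receptor for prostaglandin E2, had 1556, 4259, 5773, 16465 and 12476 counts, or 89.6, 237, 365, 883 and 724 CPM. It rose by 1.40 [1.32, 1.49] from day 3 to day 4 morning and by 1.27 [1.23, 1.32] from day 4 evening to day 5 away from the embryo, and was 0.99 [0.94, 1.03] higher around the embryo, just inside 2-fold. Ptger4, a second receptor for prostaglandin E2, had 1116, 2166, 1209, 1023 and 405 counts and was lower around than away from the embryo by -1.22 [-1.39, -1.05]. Both were thus above 20 CPM in every library. Ptger1 had 104, 183, 95, 88 and 74 counts and stayed within 2-fold throughout. Ptgdr, a receptor for prostaglandin D2, had 0, 0, 6, 278 and 65 counts, and rose away from the embryo by 4.93 [4.16, 6.76]. Ptgfrn, a regulator of the prostaglandin F2 receptor, had 648, 326, 1082, 917 and 1113 counts and rose from day 4 morning to evening by 1.91 [1.73, 2.10]. The receptors for prostacyclin (Ptgir) and prostaglandin F2 (Ptgfr) and the E2 receptor Ptger3 did not reach a mean of 1 CPM. Away from and around the embryo they had 0 and 19, 9 and 27, and 4 and 29 counts, and the thromboxane receptor Tbxa2r, also below that mean, had 12 and 25. Of the nuclear receptors, Ppard had 22, 47, 26, 38 and 147 counts and was higher around than away from the embryo by 2.01 [1.54, 2.62]. Pparg had 25, 4, 56, 26 and 33 counts and rose from day 4 morning to evening by 3.44 [2.55, 5.92]. Their partner Rxra had 545, 789, 303, 861 and 655 counts and fell by evening on day 4, at -1.19 on 789 and 303 counts.

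The other lysophosphatidic acid receptors varied less than Lpar3. Lpar6 had 2734, 3250, 3906, 5011 and 2749 counts, or 63.8, 73.3, 100.04, 109 and 64.7 RPKM, and stayed within 2-fold in all comparisons. Lpar3 by the same measure had 107, 274, 252, 23.7 and 16.7 RPKM, so Lpar3 was above Lpar6 in the first 3 libraries and below it in both day 5 libraries. Lpar1 had 555, 596, 462, 1141 and 1289 counts and rose from day 4 evening by 1.06 [0.91, 1.23] away from the embryo and 1.35 [1.20, 1.51] around it. Per length it was at 17.4 and 21.3 RPKM on day 5, beside 23.7 and 16.7 RPKM for Lpar3. Lpar2 had 55, 104, 121, 126 and 90 counts and stayed within 2-fold. Lpar4 had 38, 47, 36, 134 and 17 counts and was lower around than away from the embryo by -2.73 [-3.69, -2.13], and P2ry10 had 9, 48, 19, 22 and 7 counts.

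Among genes that make or remove lysophosphatidic acid, 3 of 9 rose and 3 fell between the day 5 libraries. Over all genes tested 13.4% rose and 15.0% fell in that comparison. Enpp2, the autotaxin that makes it, had 235, 309, 142, 104 and 10 counts and was 9.60-fold lower around than away from the embryo (-3.03 [-4.37, -2.33]). Ppap2a and Ppap2b, lipid phosphate phosphatases that remove it, moved apart between these libraries. Their relative Ppap2c stayed within 2-fold, at 202 CPM away from and 264 CPM around the embryo. Ppap2a had 179, 61, 126, 517 and 2089 counts and rose by 2.13 [1.99, 2.27], and Ppap2b had 4747, 7871, 3451, 3032 and 940 counts and fell by 1.57 on the log2 scale [-1.68, -1.47]. In the lipoxygenase branch, which uses the same arachidonic acid, 3 of 6 genes rose and 1 fell between the day 5 libraries. These counts stand beside the same 13.4% and 15.0% of all genes. Alox15 had 3058, 7450, 29757, 7786 and 38506 counts and rose by 2.42 [2.39, 2.46]. Away from the embryo it was at 417 CPM, beside 176 CPM on day 3 morning and 415 CPM on day 4 morning. Unlike Ptgs2, it was therefore not lowest away from the embryo. Alox12e had 1249, 3752, 2862, 550 and 116 counts and fell by 2.11 on the log2 scale [-2.43, -1.84]. Alox5ap, a helper protein of leukotriene synthesis, had 725, 465, 122, 49 and 114 counts and rose by 1.30 [0.84, 1.85].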

How the data were processed

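Luminal layers of wildtype uteri were collected by laser microdissection, amplified with SMART-seq v.4 and sequenced in paired-end mode. Reads were aligned to GRCm38/mm10 with HISAT2 and counted with featureCounts of Subread 2.0.0. The authors deposited raw counts per gene with gene lengths in 1 table of 5 libraries, without normalization. The gene annotation, strand setting and treatment of multiply aligned reads are not given in the sources used here. Counts were scaled by TMM in edgeR 4.0.16 (R 4.3.3), and log2 CPM carries a prior count of 2. Kept were the 12915 genes that averaged 1 CPM or more. RPKM used the scaled library sizes and the deposited lengths. A log2 change beyond 1 was called, with no p-value because each group has 1 library. Intervals cover counting error only and came from scipy 1.17.1, and a count at or under the floor of 3 equals 0.161 to 0.190 CPM. Total counts ranged from 15334674 to 19529491.

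Named were the 10 genes, all receptors for prostanoids or lysophosphatidic acid that averaged 1 CPM or more, and of each other role up to 3 genes that changed beyond 2-fold, by range. Ppap2c was named in addition, beside Ppap2a and Ppap2b. For the 3 genes with the widest range and an average of 10 CPM or more, the 3 genes of most like pattern were named. The genes and lists were chosen with earlier results of these data known. Calls were tested on simulated data. Alternatives were DESeq2 1.42.0 size factors, library totals with and without Rn45s and Lars2, log2(RPKM + 1), a prior count of 0.5, a filter at 5 CPM or none, a log2 change beyond 2, and the exact test of edgeR at dispersions of 0.1 and 0.4. Other libraries of the study were not analysed here.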

Additional observations from a re-analysis of the deposited data

Results flagged for a closer look

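Ptgs2 moved in opposite directions in the day 5 libraries. From day 4 evening its log2 change was -4.05 away from the embryo, on 972 and 67 counts, and 2.96 around it, on 972 and 8256 counts. Both changes are set against the same day 4 evening library, each group is 1 library, and the difference between them was not tested against any spread between replicates. The library around the embryo also held embryo and trophoblast markers at 149 CPM, against 7.40 CPM away from it.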

How the results depend on the processing

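With 1 library per group, no replicate could be left out. No paired analysis was possible because each group has 1 library and no numbers are shared between groups. Of 250 changes of the 10 genes under DESeq2 size factors, library totals, totals without Rn45s and Lars2, a prior count of 0.5 and log2(RPKM + 1), 241 kept their sign. None of the 125 that were past 2-fold among the 9 genes that passed the filter, which leaves out Ptgis, turned direction. Of them, 6 came inside 2-fold. These were Ptgs1 from day 4 morning to evening under library totals, and under log2(RPKM + 1) Hpgd in 3 comparisons and Ptges and Slco2a1 from day 4 morning to evening. Counts of calls are given in the order of the comparisons in the report. With log2(RPKM + 1), 3 in place of 5 of the 9 genes were called in the second comparison, and 10 in place of 17 and 7 in place of 14 pathway genes in the first and second. Without a filter the pathway calls were 29, 25, 32, 55 and 51 in place of 17, 14, 19, 31 and 29, with 13, 13, 16, 34 and 33 of them higher in place of 8, 7, 8, 15 and 15, and at a mean CPM of at least 5 the second was 9. Beyond a log2 change of 2 the pathway calls were 3, 5, 10, 16 and 12, and the calls among the 9 genes were 2 in place of 4 in the first comparison and 1 in place of 5 in the second. The exact test at a dispersion of 0.1 called 2 of the 9 genes in the first comparison, 0 in the second and 3, 6 and 4 in the others, and 1, 1, 9, 18 and 13 pathway genes. At a dispersion of 0.4 it called 0, 0, 0, 1 and 1 of the 9 genes, which were Ptgs1 around the embryo against day 4 evening and Ptgs2 between the day 5 libraries, and 0, 0, 0, 3 and 0 pathway genes. A dispersion cannot be estimated from these libraries, so the exact test compares libraries and not conditions. Low counts limit Ptgis, Hpgd, Ptges before day 5 and Slco2a1 on day 4. Leaving Rn45s and Lars2 out of the totals put the share of calls that were higher at 29.0%, 58.6% and 32.9% for day 4 against day 3 mornings, day 5 away from the embryo against day 4 evening and the day 5 pair. Over all genes there were 2445, 1829, 3308, 5145 and 3661 calls. Without a filter there were 4368, 3585, 5149, 7800 and 5855, at a mean CPM of at least 5 there were 1438, 1015, 2287, 3663 and 2436, beyond a log2 change of 2 there were 685, 488, 1154, 2272 and 1398, and with log2(RPKM + 1) there were 1162, 671, 1992, 3562 and 2189. The exact test called 476, 241, 1077, 2540 and 1400 at a dispersion of 0.1 and 1, 0, 24, 335 and 124 at 0.4.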
